A study of Mus musculus with 6 samples.

Results

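SR proteins, heterogeneous nuclear ribonucleoproteins (hnRNPs) and the RNA-binding proteins that act with them were compared between 4T1 and 4TO7, a pair of mouse mammary carcinoma cell lines. The 40 genes were taken by symbol from the 47729 genes of the deposited expression table, as a list of names with no threshold on a measured value. They comprised 10 SR protein genes, 2 Tra2 genes, 18 hnRNP genes, 3 genes of the polypyrimidine tract-binding (PTB) family, 3 muscleblind genes and 4 other regulators (Rbfox2, Qk, Rbm47 and Celf1). Both lines trace to spontaneous tumors of BALB/c mice, were kept in DMEM with 10% FBS and received no treatment. Neither carries an allele, transgene or agent that the labels name. Total RNA was sequenced from 3 libraries of 4T1 and 3 libraries of 4TO7. Each group stands for a single line, and since the labels speak of triplicate growth without saying that the cultures were independent, each p-value reflects only how far these samples scatter, which could be technical scatter alone. As background, both lines are widely used as models of mammary tumor spread, 4T1 as the line that forms metastases readily.

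As background, SR proteins carry an arginine-serine domain, bind enhancer sequences in exons and mostly favor inclusion of the exon they bind, while many hnRNPs silence exons. Several of these genes control their own output: an exon with a premature stop, or one whose loss shifts the reading frame, sends part of the transcript to nonsense-mediated decay. PTBP1 acts in the same way on its paralog Ptbp2, because its binding leads to skipping of Ptbp2 exon 10 and to decay of the shortened transcript. The values below are reads summed over each gene. They do not separate isoforms and do not measure splicing.

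Ptbp2 was the only member called higher in 4TO7, and Ptbp1 was called higher in 4T1. A link between these calls was not tested. The Ptbp2 exon on which PTBP1 acts is shown here, and its inclusion was not measured. In GENCODE M21 (GRCm38) it lies at chr3:119724612-119724645 on the minus strand, is exon 10 of the coding transcripts that hold it, and is missing from a transcript annotated as a target of nonsense-mediated decay. It spans 34 bases, which leaves a remainder of 1 when divided by 3, so that skipping it shifts the frame. It holds TCTT, a pyrimidine-rich sequence of the kind that PTB proteins bind, 1 time, and no background count of TCTT was taken. The introns beside the exon were not searched, and binding was not measured. Capitals mark the exon and lower case the 20 transcript bases on either side.
Ptbp2 exon 10: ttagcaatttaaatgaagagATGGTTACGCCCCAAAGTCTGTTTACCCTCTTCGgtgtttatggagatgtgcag

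Of the 40 genes, all passed the low-value filter (a normalised read count of at least 10 in at least 3 libraries), 7 passed as higher in 4T1, 1 passed as higher in 4TO7 and 32 were not called (limma on log2 values, Benjamini-Hochberg adjusted p under 0.05). The 7 were Rbm47, Hnrnpab, Hnrnph3, Ptbp1, Hnrnpul2, Tra2b and Hnrnpc, and the other was Ptbp2. Over all 14276 genes tested, the same comparison called 49.0% of genes, 25.1% as higher in 4T1 and 23.9% as higher in 4TO7. Among the 5587 tested genes whose mean was at least that of the lowest member it called 48.4%. The splicing factors were thus called in 20% of cases, below the background at either level of expression. The authors' deposited table, which has its own fold changes and adjusted p-values, also called 7 of the 40 higher in 4T1 and 1 higher in 4TO7 at 0.05, and the 8 genes were the same. Its background was 39.1% of 19556 genes, 19.4% higher in 4T1 and 19.7% higher in 4TO7. Leaving out 1 library at a time gave 3 to 14 members higher in 4T1 and 0 to 2 higher in 4TO7, the 14 without 4TO7 replicate 2 and the 3 without 4T1 replicate 2 or 4TO7 replicate 1. In those fits 19.3% to 29.2% of all genes were called higher in 4T1 and 17.4% to 27.3% higher in 4TO7.

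The differences were small. The median log2 fold change of the 40 genes (4T1 minus 4TO7) was 0.21 beside 0.03 over all genes tested. Over tested genes expressed at least as highly as the lowest member it was 0.11. The members' median was 0.08 beside -0.10 over all genes with equal totals, and 0.03 beside -0.02 with quantile normalization. The median size of the change, whatever its sign, was 0.24 beside 0.57 over all genes and 0.44 over those of at least the lowest member's level. A total of 39 of the 40 genes (97.5%) lay within 2-fold between the lines, as did 71.3% of all genes tested and 83.8% of those expressed at least as highly as the lowest member. Rbm47 was the exception. The fold change was above 0 in 32 of 40 members (80%), in 51.5% of all genes and in 57.0% of those expressed at least as highly as the lowest member. The lines did not overlap in 11 of 40 members, and in 58.4% of all genes. For 31 of the 32 members not called, the 95% interval of the difference lay wholly within 2-fold, Mbnl3 being the exception. Their adjusted p-values ran from 0.0571 to 0.896.

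**Figure D1:**
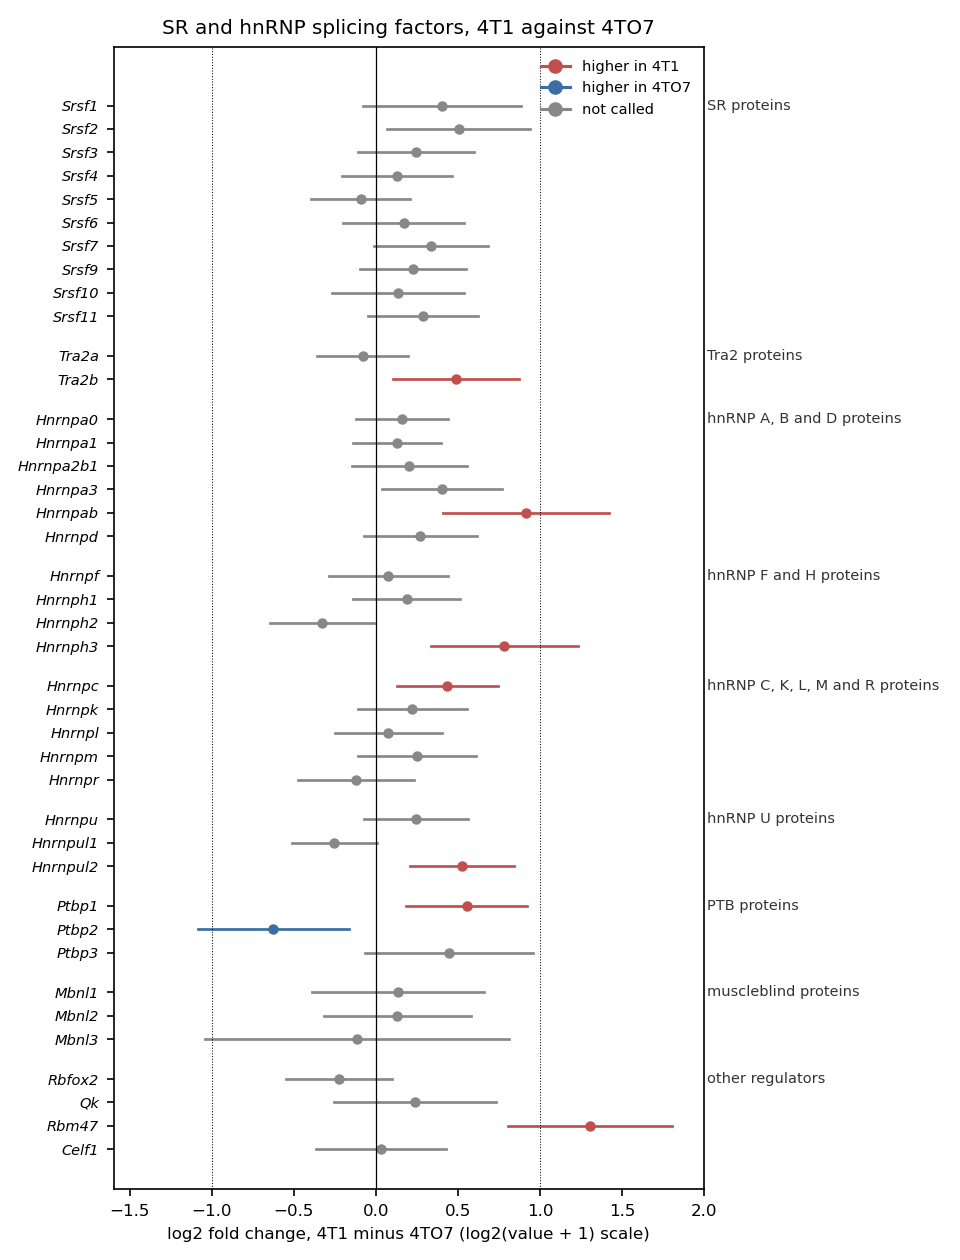
Log2 fold change of each of the 40 splicing factor genes, 4T1 minus 4TO7, by family. Points are limma estimates from 3 libraries a line, lines are 95% intervals and color marks the call. Most points lie between 0 and 0.5, Rbm47 at 1.31 is the farthest to the 4T1 side, Ptbp2 at -0.63 the farthest to the 4TO7 side, and Mbnl3 has the widest interval.

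As a share of all reads assigned to genes, the 40 genes together took 1.39%, 1.57% and 1.39% of the 4T1 libraries and 1.28%, 1.47% and 1.19% of the 4TO7 libraries, in replicate order. The ranges overlapped, and the means of 1.45% ± 0.104 and 1.31% ± 0.141 (SD, n = 3 each) differed with p = 0.3 in a two-sided exact permutation test, which cannot go below 0.1 with 3 libraries against 3. In such bulk samples, fewer cells that express a gene and less RNA per cell cannot be told apart.

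The number of calls depended on single libraries. It fell to 3 higher in 4T1 (Hnrnpab, Hnrnph3 and Rbm47) without 4T1 replicate 2 or without 4TO7 replicate 1, and to 4 without 4TO7 replicate 3, where 19.9%, 19.3% and 19.5% of all genes were called in that direction. Ptbp2 was not called without 4T1 replicate 1, 4TO7 replicate 1 or 4TO7 replicate 3, which left 0 members higher in 4TO7 beside 20.2%, 17.4% and 17.7% of all genes. Replicate 2 of 4TO7 stood apart from its line on the second principal component of all tested genes (52.2 against -20.03 and -27.5), which held 5.27% of the variance while the first, separating the lines, held 89.9%. It had the highest value of its line in 32 of 40 members (80%), and in 40.5% of all genes. Replicate 2 of 4T1 was likewise the highest of its line in 29 of 40 members (72.5%), and in 30.9% of all genes. The fibroblast marker Pdgfra, a growth factor receptor, read 1706 in 4TO7 replicate 2 against 6700 and 7452 in the other libraries of the line. Of the epithelial markers, Krt18 read 8118 there against 15419 and 17067, and Krt8 read 17550 against 22055 and 25128. Cdh1, Epcam and Krt19 were also lowest in that library, while Krt7, Cldn3 and Cldn4 were not. Without 4TO7 replicate 2, 14 members were called higher in 4T1 and 2 higher in 4TO7, where all genes gave 29.2% and 27.3%. What sets this library apart was not tested.

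The 10 SR genes showed no called difference. By limma 0 of 10 passed the adjusted threshold, beside 49.0% of all genes, and 1 had an unadjusted p under 0.05 (Srsf2). With edgeR on the recovered reads 0 were called and with DESeq2 1, again Srsf2, with backgrounds of 48.8% and 51.2%. Srsf2 also passed in limma with no low-value filter (0.0473). Their median log2 fold change was 0.23 (0.11 with equal totals and 0.11 with quantile normalization), 9 of the 10 were above 0, and the range ran from -0.09 to 0.50. In 10 of 10, replicate 2 of 4TO7 had the highest value of its line.

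Srsf2, which takes part in early recognition of splice sites, was read at 14845, 19380 and 13272 in 4T1 and at 9878, 13691 and 9886 in 4TO7. The ranges touched only through 4TO7 replicate 2, which exceeded 4T1 replicate 3. The log2 difference was 0.50 ± 0.19 (SE) with an adjusted p of 0.0571. Exons of Mettl23 and Mfsd11 on the opposite strand cover 15.6% and 9.74% of the exon bases of Srsf2, and the sources do not say if reads were assigned by strand.

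Srsf1, the founding SR protein and a known oncogene in mammary cells, had means of 21577 ± 4241 and 16471 ± 4325 normalised counts (SD, n = 3 each), a log2 difference of 0.40 and an adjusted p of 0.146. Srsf3, a small SR protein that also acts in mRNA export, differed by 0.24 with an adjusted p of 0.223. Srsf7, which shares that export role, differed by 0.34 with an adjusted p of 0.0983. Srsf11 differed by 0.29, Srsf9 by 0.23, Srsf6 by 0.17, Srsf10 by 0.13 and Srsf4 by 0.13, all log2 and with adjusted p from 0.135 to 0.554. Srsf5 was the only SR gene below 0, at -0.09 (95% interval -0.40 to 0.21). Gm12992 covers 43.0% of the exon bases of Srsf4 from the opposite strand.

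When 4TO7 replicate 2 was left out, 5 of the 10 SR genes passed as higher in 4T1, beside 29.2% of all genes. They were Srsf2 (log2 difference 0.66, adjusted p = 0.00989), Srsf1 (0.61, 0.0133), Srsf7 (0.44, 0.0259), Srsf3 (0.38, 0.0317) and Srsf11 (0.39, 0.0371). Leaving out any other single library gave 0 of 10.

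Of the Tra2 pair, SR-like activators that bind GA-rich enhancers, Tra2b was higher in 4T1 and Tra2a was not called. Tra2b was read at 6602, 7286 and 5782 in 4T1 and at 4332, 5730 and 4056 in 4TO7, so that the lowest 4T1 library lay just above the highest 4TO7 library. The means were 6557 ± 753 and 4706 ± 897, a ratio of 1.39, with a log2 difference of 0.49 ± 0.17 (SE) and an adjusted p of 0.0410. That call was lost in 9 of 17 alternative settings, with adjusted p up to 0.144, among them leaving out 4T1 replicate 1 (0.0909), 4T1 replicate 2 (0.133), 4TO7 replicate 1 (0.132) or 4TO7 replicate 3 (0.144). Tra2a was nearly level, at 6412 ± 18.0 and 6796 ± 543, with a log2 difference of -0.08 and an adjusted p of 0.607.

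Among the hnRNP A, B and D genes, which encode abundant proteins with paired RNA recognition motifs, Hnrnpab alone was called. Hnrnpab lies at chr11:51600100-51606847 on the minus strand. It was read at 51578, 52294 and 41178 in 4T1 and at 21954, 36278 and 20878 in 4TO7. All 4T1 libraries exceeded all 4TO7 libraries, and 4TO7 replicate 2 was far above the other 4TO7 libraries. The means were 48350 ± 6222 and 26370 ± 8598, a ratio of 1.83, and the log2 difference was 0.91 ± 0.22 (SE) with an adjusted p of 0.00952. It was 1.17 without 4TO7 replicate 2. Phykpl covers 29.1% of the exon bases of Hnrnpab from the opposite strand and was itself read at 848 in 4T1 and 732 in 4TO7, far below Hnrnpab.

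Hnrnpa1, which counters SR proteins at many exons, was at 31091 ± 1736 and 28435 ± 1581, a log2 difference of 0.13 (95% interval -0.14 to 0.40) with an adjusted p of 0.391. Hnrnpa2b1 differed by 0.20, Hnrnpa0 by 0.16 and Hnrnpd, an AU-rich element binding protein, by 0.27, with adjusted p of 0.303, 0.310 and 0.164. Of the family members not called, Hnrnpa3 came closest, at 0.40 with an adjusted p of 0.0652. Hnrnpa3 passed without 4T1 replicate 1 (0.0448) or without 4TO7 replicate 2 (0.0113), and Hnrnpd without 4TO7 replicate 2 (0.0195). Copies were genes that matched a member's longest coding transcript at 95% identity or more over at least 300 bases. Genes that overlap the member were left out. Hnrnpa3 has 27 copies in the genome annotation, 26 of them pseudogenes, and Hnrnpa1 has 9, so reads of these genes may be divided among copies or dropped. The copies present in the table summed to 1.45% of Hnrnpa3 and 2.03% of Hnrnpa1, which leaves out any dropped reads and so does not measure what a member lost. The largest shares among the members were 5.86% for Hnrnpk and 5.21% for Hnrnpc.

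The hnRNP F and H proteins bind runs of G. Hnrnph3 was higher in 4T1, at 2175, 1966 and 2171 against 1637, 1111 and 1002 in 4TO7. The lines did not overlap, and 4TO7 replicate 1 was the nearest to 4T1. The means were 2104 ± 120 and 1250.2 ± 340, a ratio of 1.68, with a log2 difference of 0.78 ± 0.20 (SE) and an adjusted p of 0.0112. Its relative Hnrnph2 lay on the other side, at 2445, 2612 and 2723 in 4T1 against 3047, 3731 and 3034 in 4TO7, without overlap, with a log2 difference of -0.33 and an adjusted p of 0.0787. Hnrnph1 differed by 0.19 and Hnrnpf by 0.08, with adjusted p of 0.306 and 0.717. The family had 1 of 4 genes called, beside 49.0% of all genes. Its median was 0.13, which became -0.01 with quantile normalization.

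Of the hnRNP C, K, L, M and R genes, Hnrnpc was higher in 4T1. Hnrnpc protein binds uridine tracts of nascent transcripts. Its values were 16852, 16520 and 14608 in 4T1 and 11513, 13327 and 10729 in 4TO7, with all 4T1 libraries above all 4TO7 libraries. The means of 15993 ± 1211 and 11857 ± 1332 gave a ratio of 1.35, a log2 difference of 0.43 ± 0.13 (SE) and an adjusted p of 0.0270, which was lost in 7 of 17 alternatives, among them leaving out 4T1 replicate 1 (0.0601), 4T1 replicate 2 (0.0783), 4TO7 replicate 1 (0.0950) or 4TO7 replicate 3 (0.109). The copy of Hnrnpc in the table, the pseudogene Gm12696, was read at 817 in 4T1 and 635 in 4TO7. Hnrnpk, a poly-C binding protein, differed by 0.22, Hnrnpm by 0.25, Hnrnpl by 0.07 and Hnrnpr by -0.12, with adjusted p from 0.215 to 0.689. March2 shares 14.7% of the exon bases of Hnrnpm on the same strand.

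The hnRNP U genes encode scaffold proteins with a SAP domain that binds DNA. Hnrnpul2 was read at 12045, 15521 and 13676 in 4T1 and at 8826, 10117 and 9639 in 4TO7. The lines were separate, and the means of 13747 ± 1739 and 9527 ± 652 gave a ratio of 1.44 and a log2 difference of 0.52 ± 0.14 (SE), with an adjusted p of 0.0140. Leaving out 4T1 replicate 2 gave 0.0508 and leaving out 4TO7 replicate 1 gave 0.0656. Hnrnpul1 lay on the other side without overlap (13868, 14450 and 14747 against 16508, 16882 and 17954), at -0.25 with an adjusted p of 0.0972. Hnrnpu differed by 0.25 with an adjusted p of 0.173.

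**Figure D2:**
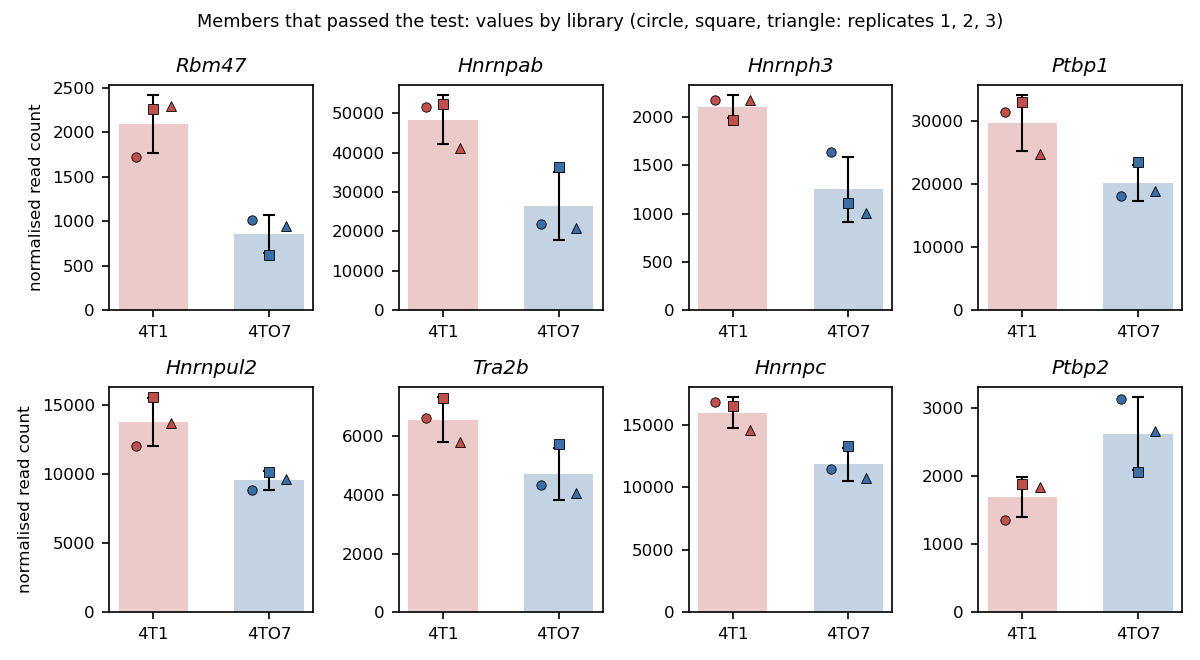
Normalised read counts of the 8 called genes in each library. Bars are line means, error bars SD over 3 libraries and points the replicates, and each panel starts at 0. In every panel the points of the lines are separate, and 4TO7 replicate 2 is the highest of its line in Hnrnpab, Ptbp1, Hnrnpul2, Tra2b and Hnrnpc.

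The PTB family held calls in both directions. Ptbp1, the widely expressed repressor of exons with pyrimidine tracts, lies at chr10:79854427-79864771 on the plus strand and was read at 31389, 33022 and 24724 in 4T1 and at 18178, 23488 and 18967 in 4TO7. The lowest 4T1 library was close to the highest 4TO7 library but above it. The means were 29712 ± 4396 and 20211 ± 2865, a ratio of 1.47, and the log2 difference was 0.55 ± 0.16 (SE) with an adjusted p of 0.0213. The call was lost with quantile normalization (0.0728) and in 4 of the 6 fits that left out 1 library: without 4T1 replicate 1 (0.0650), 4T1 replicate 2 (0.0773), 4TO7 replicate 1 (0.0844) or 4TO7 replicate 3 (0.0700). Plppr3, on the opposite strand, shares 5.3% of its exon bases and was read at 45.6 in 4T1 and 561 in 4TO7.

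Ptbp2, the paralog that prevails in developing neurons, lies at chr3:119718742-119784466 on the minus strand. It was read at 1351, 1892 and 1841 in 4T1 and at 3133, 2070 and 2672 in 4TO7. Every 4TO7 library exceeded every 4T1 library, and replicate 2 was the lowest of the 4TO7 line here while it was the highest for Ptbp1. The means were 1695 ± 299 and 2625 ± 533, which made Ptbp2 1.55-fold higher in 4TO7, with a log2 difference of -0.63 ± 0.20 (SE) and an adjusted p of 0.0313. The call was lost without 4T1 replicate 1 (0.0971), 4TO7 replicate 1 (0.120) or 4TO7 replicate 3 (0.0839), and in limma without trend and robust settings (0.0540).

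Ptbp2 amounted to 4.30%, 5.73% and 7.45% of Ptbp1 in the 4T1 libraries and to 17.2%, 8.81% and 14.1% in the 4TO7 libraries. The ranges did not overlap, and 4TO7 replicate 2 again lay nearest to 4T1. The mean ratio was 5.83% ± 1.57 in 4T1 and 13.4% ± 4.26 in 4TO7 (SD, n = 3 each), or 2.30-fold higher in 4TO7. This ratio combines genes that were each already separate in opposite directions, so it is a description and no test of it is given. Per kilobase of exon, Ptbp2 was 3.01% of Ptbp1 in 4T1 and 6.91% in 4TO7. The inclusion of exon 10, printed above, was not measured.

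**Figure D3:**
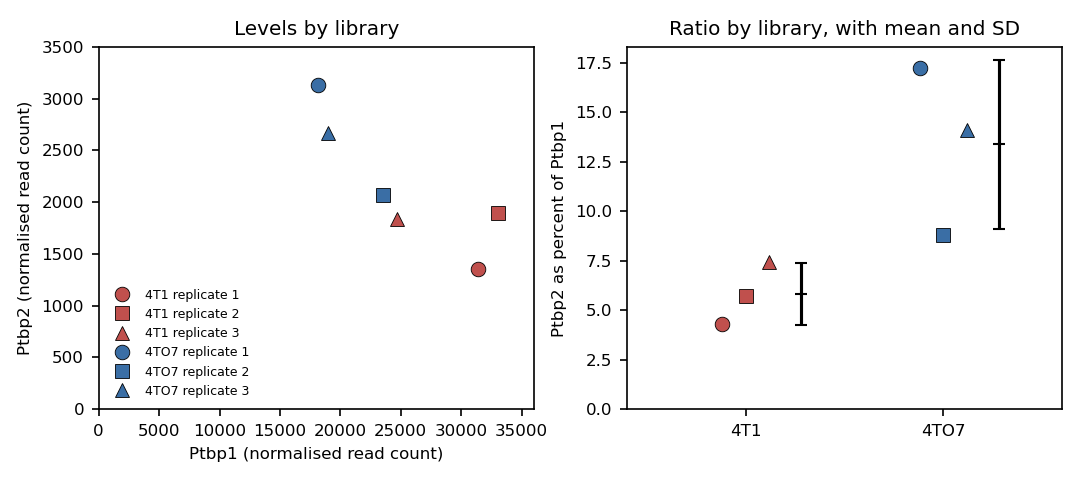
Ptbp2 against Ptbp1 in normalised read counts for each library (left) and Ptbp2 as a percentage of Ptbp1 (right, points are libraries and the black marks the mean and SD over 3 libraries). The 4T1 libraries have 4.30% to 7.45% and the 4TO7 libraries 8.81% to 17.2%.

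Ptbp3, the third paralog, was read at 8219, 14079 and 14748 in 4T1 and at 8247, 9770 and 8374 in 4TO7. Replicate 1 of 4T1 lay below all 4TO7 libraries, and the other 4T1 libraries lay above them. The log2 difference was 0.45 ± 0.22 (SE) with an adjusted p of 0.133, and without 4T1 replicate 1 the adjusted p was 0.0059.

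The muscleblind proteins bind YGCY sequences and drive the switch from fetal to adult exons in muscle and brain. By limma 0 of 3 genes were called, beside 49.0% of all genes, and 0 had an unadjusted p under 0.05. With edgeR and DESeq2 0 were called as well, beside 48.8% and 51.2% of all genes. Mbnl1 was read at 8252, 14401 and 11508 in 4T1 and at 9349, 12727 and 8644 in 4TO7, a log2 difference of 0.14 (95% interval -0.39 to 0.66). Mbnl2 was read at 4031, 6397 and 5718 against 4395, 5625 and 4538, a difference of 0.13. Mbnl3 was read at 926, 3202 and 2455 against 2127, 2421 and 1798, a difference of -0.12 (95% interval -1.04 to 0.81). In all 3 genes the lines overlapped, and 4T1 replicate 1 was lower than every other library. Its log2 ratio to the other 4T1 libraries was -0.65 for Mbnl1, -0.59 for Mbnl2 and -1.61 for Mbnl3, and without it the difference of Mbnl3 was 0.42 in place of -0.12.

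That library read long genes lower. Over well-expressed genes, the median log2 ratio of 4T1 replicate 1 to replicates 2 and 3 was 0.17 for genes with less than 4 kb of exon (1851 genes), -0.06 from 4 to 8 kb (2323 genes) and -0.35 from 8 kb (1412 genes). The members followed the same order, with 0.03 (10 genes), -0.18 (18 genes) and -0.39 (12 genes). In 4TO7 replicate 2 the medians of all genes hardly changed with length, at 0.11, 0.12 and 0.06, while the members stood at 0.20, 0.33 and 0.28. Ptbp3, Qk and the muscleblind genes have 7.48 kb, 14.2 kb and 8.74 to 18.7 kb of exon. In 4T1 replicate 1 Ptbp3 stood at -0.81, far from the members' median of -0.18 in its length range, and Qk at -0.70. Of the 12 members from 8 kb, Hnrnpu stood at 0.16 in that library, Tra2b and Srsf11 at 0.01 and Hnrnpul1 at -0.07, while the others were lower. The part of transcript length in the values of Ptbp3, Qk and the muscleblind genes was not tested.

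**Figure D4:**
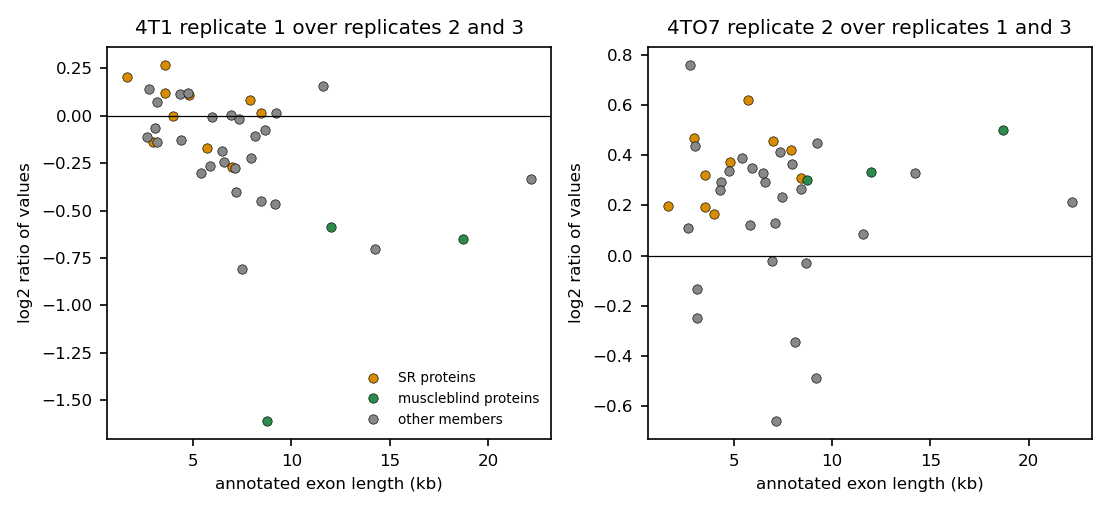
Log2 ratio of 4T1 replicate 1 to the other 4T1 libraries (left) and of 4TO7 replicate 2 to the other 4TO7 libraries (right) against kilobases of annotated exon, on linear axes. Each point is 1 of the 40 members, with SR and muscleblind genes colored. On the left the members' medians run from 0.03 under 4 kb to -0.39 from 8 kb, with Mbnl3 lowest at -1.61, and on the right all SR genes lie above 0.

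Rbm47 differed most among the 40 genes. It encodes an RNA-binding protein of epithelial cells, also known as a cofactor of the APOBEC1 RNA-editing enzyme, and lies at chr5:66016549-66173118 on the minus strand. It was read at 1724, 2269 and 2295 in 4T1 and at 1017, 619 and 942 in 4TO7, so that the lowest 4T1 library was well above the highest 4TO7 library. The means were 2096 ± 322 and 859 ± 211, a ratio of 2.44, with a log2 difference of 1.31 ± 0.22 (SE) and an adjusted p of 0.00169. Rbm47, Hnrnpab and Hnrnph3 kept their calls in all 17 alternatives tried, where the adjusted p of Rbm47 reached at most 0.0116.

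Epithelial markers moved with Rbm47: 8 of 8 were higher in 4T1, their summed value ran from 195840 to 217520 in 4T1 and from 25840 to 42486 in 4TO7, Krt8 and Krt18 made up most of the 4TO7 sum, and Krt19 was at 0 in 4TO7 replicate 2 and below 2 in the others. Their part in the result was not tested. Fibroblast markers summed to 590 to 1372 in 4T1 and 1721 to 7522 in 4TO7, nearly all of it Pdgfra, with Col3a1, Lum and Thy1 at 0 in both lines. Leukocyte markers summed to 629 to 939 and 286 to 406, with Cd3e and Adgre1 at 0 in both. Endothelial markers stayed at or below 18.2 and erythroid markers at or below 2.10.

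Rbfox2, which binds UGCAUG and is known to act in epithelial and mesenchymal splicing programs, was read at 4208, 4534 and 4545 in 4T1 and at 5627, 4411 and 5586 in 4TO7. Only 4TO7 replicate 2 fell within the 4T1 range. The log2 difference was -0.23 with an adjusted p of 0.215, and without that replicate -0.34 with an adjusted p of 0.0434. Qk, the quaking gene, differed by 0.24 and Celf1, a binder of GU-rich elements, by 0.03, with adjusted p of 0.388 and 0.896. Qk passed as higher in 4T1 without 4T1 replicate 1 (0.0496). Celf1 changed sign under 6 of 17 alternatives.

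Levels between genes were compared per kilobase of exon, where each base in an exon of any annotated transcript was counted. Transcripts with a retained intron can add to that length, so the order between genes also depends on the annotation. Srsf3 has 4 such transcripts and 7.90 kb of exon, while Srsf2 has 1 and 2.96 kb. Hnrnpab was the highest member in both lines, at 17379 ± 2236 normalised counts per kb in 4T1 and 9479 ± 3090 in 4TO7, and Hnrnpa1 (9861 ± 550 and 9018 ± 502) and Hnrnpa2b1 (8223 ± 808 and 7185 ± 1128) came next in both. In 4TO7, Hnrnpab and Hnrnpa1 did not differ beyond their spread. Srsf2 was the highest SR gene per kb in both lines, at 5352 ± 1072 and 3770 ± 743. At the low end, Ptbp2 was last of 40 in 4T1 at 185 ± 32.6 per kb, and Rbm47 was last in 4TO7 at 120.0 ± 29.5. Mbnl3 lay next to last in both. The 40 genes spanned means of 1478 to 50721 normalised counts over all libraries, and no single value was below 619.

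Transcripts annotated as targets of nonsense-mediated decay were listed in GENCODE M21 for 23 of the 40 members (57.5%), against 29.05% of the 12000 protein-coding genes tested. They were listed for 9 of 10 SR genes, 2 of 2 Tra2 genes, 3 of 3 PTB genes and 0 of 3 muscleblind genes. Transcripts with a retained intron were annotated for 31 of 40 members (77.5%), against 59.55% of those coding genes. These shares describe the annotation. The counts per gene include such transcripts and cannot show how much of each gene's reads they hold.

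The promoters of these genes had a common composition. RefSeq (GRCm38.p6) sequences of the 250 bases before the start were matched for 37 of 40 members. Of these, 34 (91.9%) had a ratio of observed to expected CG dinucleotides above 0.6, as had 68.9% of 9649 tested genes and 34.5% of all 27025 genes listed. The median GC content was 61.6% beside 60% and 52%. TATAAA, searched on both strands, was found in 4 of 37 (10.8%), 6.16% and 13.0%. The promoters of Hnrnpab, Ptbp1 and Ptbp2 are shown because Hnrnpab has the largest difference in normalised counts (Rbm47 has the largest fold) and the PTB pair was called in opposite directions. Each lacks TATAAA. Capitals mark CG, which occurs 23, 17 and 23 times. They lie at chr11:51606882-51607131 (minus strand), chr10:79854182-79854431 (plus strand) and chr3:119783389-119783638 (minus strand). The starts used are those of RefSeq and differ from those of GENCODE M21. In GENCODE M21 Ptbp2 spans chr3:119718742-119784466, so the Ptbp2 sequence lies inside the gene, and the Ptbp1 sequence reaches just into Ptbp1.
Hnrnpab promoter: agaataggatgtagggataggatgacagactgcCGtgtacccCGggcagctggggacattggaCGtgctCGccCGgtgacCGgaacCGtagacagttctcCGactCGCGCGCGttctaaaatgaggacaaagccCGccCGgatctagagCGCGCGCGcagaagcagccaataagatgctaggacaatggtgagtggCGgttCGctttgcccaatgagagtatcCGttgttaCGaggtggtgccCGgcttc
Ptbp1 promoter: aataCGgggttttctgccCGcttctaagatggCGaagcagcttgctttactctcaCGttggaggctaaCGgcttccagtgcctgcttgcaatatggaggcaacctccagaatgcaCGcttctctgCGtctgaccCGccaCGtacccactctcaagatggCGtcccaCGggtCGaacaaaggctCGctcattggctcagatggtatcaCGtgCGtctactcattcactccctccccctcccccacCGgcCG
Ptbp2 promoter: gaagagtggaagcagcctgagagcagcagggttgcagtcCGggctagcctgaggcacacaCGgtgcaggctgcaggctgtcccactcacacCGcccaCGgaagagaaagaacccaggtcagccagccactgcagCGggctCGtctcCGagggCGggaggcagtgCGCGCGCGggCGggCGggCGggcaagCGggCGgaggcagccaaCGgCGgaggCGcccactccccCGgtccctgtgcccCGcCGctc

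Other genes of the splicing machinery were taken from 4 related lists with 124 genes, of which 112 passed the filter. Of the 112, 39 passed as higher in 4T1 and 9 as higher in 4TO7 (42.9% called, beside the 49.0% of all genes), with a median log2 fold change of 0.25. The 39 became 22 without 4T1 replicate 2 and 21 without 4TO7 replicate 1 or 4TO7 replicate 3. The core spliceosome, the small nuclear ribonucleoproteins and helicases that carry out the reaction, had 21 of 45 genes higher in 4T1. Only 1, Prpf6, was higher in 4TO7. The shares of all genes were 25.1% and 23.9%. The fold change was above 0 in 40 of 45 (88.9%), in 51.5% of all genes and in 57.0% of those expressed at least as highly as the lowest member. The 21 became 11 without 4T1 replicate 2 and 10 without 4TO7 replicate 1 or 4TO7 replicate 3. In those fits 19.9%, 19.3% and 19.5% of all genes were called in that direction. The median of the list was 0.36, and 0.23 with equal totals, where the median of all genes was -0.10. Prpf19, the ubiquitin ligase of the catalytic complex, was at 12964, 11266 and 9783 in 4T1 and 5123, 6123 and 4514 in 4TO7, with no overlap, a ratio of 2.16 and an adjusted p of 0.000832. The helicase gene Dhx38 had a ratio of 1.98, Sf3a2 of the U2 particle 1.90 and Snrpa1 of the same particle 1.76, a call that was lost without 4T1 replicate 1 or 2 or 4TO7 replicate 1 or 3.

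The exon junction complex and nonsense-mediated decay list had 7 of 16 genes higher in 4T1 and 1 in 4TO7, with a median of 0.40. The shares of all genes were 25.1% and 23.9%. The 7 became 4 without 4T1 replicate 1, 4T1 replicate 2 or 4TO7 replicate 3 and 3 without 4TO7 replicate 1. In those fits 19.3% to 21.3% of all genes were called in that direction. Eif4a3, the helicase that anchors the exon junction complex, had a ratio of 1.97, and Magohb, a core subunit, 1.72. Smg5, a decay factor, had a ratio of 1.68 with overlapping lines and an adjusted p of 0.0333, lost in 8 of 17 alternatives, among them the same 4 left-out libraries as for Snrpa1. Upf3b, which couples the exon junction complex to decay, was 1.81-fold higher in 4TO7.

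Among 12 tested kinases and import receptors of SR proteins, 3 were higher in 4T1 and 2 in 4TO7, beside 25.1% and 23.9% of all genes. The median was -0.03. That median was -0.16 with equal totals, -0.18 with quantile normalization and 0.06 without 4TO7 replicate 2. The 3 became 1 without 4T1 replicate 2 or 4TO7 replicate 3, where all genes gave 19.9% and 19.5%. The 2 became 1 without 4T1 replicate 1, 4T1 replicate 3 or 4TO7 replicate 3, where all genes gave 20.2%, 20.7% and 17.7%. The paired SR protein kinases went in opposite directions. Srpk2 was read at 2367, 3037 and 3390 in 4T1 and at 6105, 5144 and 6690 in 4TO7, without overlap and 2.04-fold higher in 4TO7 (adjusted p = 0.00167). Srpk1 was read at 8208, 7899 and 6513 against 4249, 6678 and 4086, with 4TO7 replicate 2 inside the 4T1 range, a ratio of 1.51 and an adjusted p of 0.0358. The Srpk1 call was lost with equal totals (0.0679), with quantile normalization (0.0664), in limma without trend and robust settings (0.0637), in edgeR (0.0552) and without 4T1 replicate 1 or 2 or 4TO7 replicate 1 or 3 (0.107 to 0.121). Dyrk1b was at 349 ± 151 and 15.9 ± 6.22, and its relative Dyrk1a, a kinase that phosphorylates splicing factors, was 1.42-fold higher in 4TO7, which was not called without 4T1 replicate 1, 4T1 replicate 3 or 4TO7 replicate 3.

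Of 39 other RNA-binding regulators tested, 8 passed as higher in 4T1 and 5 in 4TO7, beside 25.1% and 23.9% of all genes. Without 4TO7 replicate 2 the counts were 12 and 6, where all genes gave 29.2% and 27.3%. The 5 became 3 without 4T1 replicate 1, 4T1 replicate 3 or 4TO7 replicate 1, where all genes gave 20.2%, 20.7% and 17.4%. The median of 0.09 became -0.03 with equal totals and -0.04 with quantile normalization. The epithelial splicing regulators were the farthest apart. Esrp1 was read at 2780, 3710 and 3882 in 4T1 and at 0, 0 and 2.99 in 4TO7. Esrp2 was read at 1263, 1583 and 976 against 52.4, 57.6 and 63.7, a ratio of 22.001. Both showed the direction of the epithelial markers, and the part of those markers in the values was not tested. Celf2, a relative of Celf1, had a ratio of 1.96, while Celf1 had one of 1.03. Rbm20, the regulator of titin splicing in heart, was near the detection floor in 4T1, at 2.018, 0.996 and 2.90, and at 14.0, 16.8 and 23.9 in 4TO7.

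**Figure D5:**
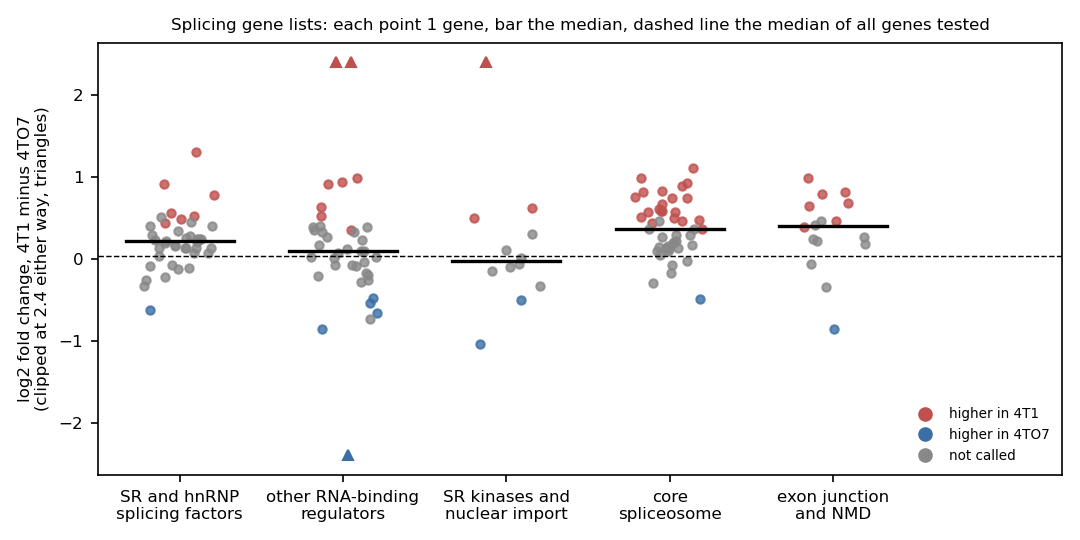
Log2 fold change, 4T1 minus 4TO7, of the 40 SR and hnRNP splicing factors and of the tested genes of the 4 related lists. Points are genes colored by call, bars are medians, triangles lie beyond 2.4 in size and the dashed line is the median of all genes tested (0.03). The medians are 0.21 for the splicing factors and 0.36 for the core spliceosome, and the points beyond the axis include Esrp1 and Esrp2.

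The split of calls moved with the scaling. With equal library totals, which shifted the median fold change of all genes by -0.13, 5 members were higher in 4T1 (Hnrnpab, Hnrnph3, Hnrnpul2, Ptbp1 and Rbm47) and 3 in 4TO7 (Hnrnph2, Hnrnpul1 and Ptbp2), beside 7 and 1 as deposited. With quantile normalization the split was 4 and 3. The share of all genes called higher in 4T1 was 20.7% with equal totals and 23.0% with quantile normalization, and the share called higher in 4TO7 was 28.4% and 26.2%.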

How the data were processed

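RNA sequencing measured gene expression in 3 libraries of 4T1 and 3 of 4TO7. Reads were processed with STAR 2.5, featureCounts 1.5 and DESeq2 (no version given) on GRCm38, per the submitters' processing notes; strand settings and annotation release are not given in the sources used here. The 6 deposited sample columns hold a normalised signal, reads per gene divided by 1 size factor per library (0.954 to 1.07), per the file headers and the values. Every nonzero value was a whole multiple of 1 step (100% within 1e-06 of a whole read), which gave 33605566 to 39072639 reads per library. In the recovered reads no pair of replicates agreed within sampling noise (chi-square per gene 23.9 to 117). The authors' comparison in the same deposited table holds a log2 fold change, a test score and p-values before and after adjustment.

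Values were tested as log2(value + 1) in genes with at least 10 in at least 3 libraries (14276 genes), with limma 3.58.1 in R 4.3.3 (line only, trend and robust), two-sided, Benjamini-Hochberg over all genes tested, threshold 0.05. Fold changes are 4T1 minus 4TO7 and understate changes of low genes, and a ratio is one of line means. The members' share of reads was compared by exact permutation. edgeR 4.0.16 and DESeq2 1.42.0 on the recovered reads were alternatives, beside other pseudocounts, filters, scalings, variance settings, a replicate block and leaving out each library. Copies were searched with blastn 2.17.0, and exon lengths, overlaps and transcript types come from GENCODE M21. Exon length counts each base in an exon of any annotated transcript of the gene. The members and lists were chosen with earlier results of these data known. All 40 members are named; values in every library are given for called members at a ratio of at least 1.5 and for the PTB and muscleblind families by rule, and for the other called members, Srsf2, Hnrnph2, Hnrnpul1 and Rbfox2 after their values were seen. From each related list, up to 4 called genes with the largest fold change are named, plus Esrp1 and Esrp2; Prpf6 was named after its value was seen. All sample columns were used.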

Additional observations from a re-analysis of the deposited data

How the results depend on the processing

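All 17 alternatives kept the calls of Rbm47, Hnrnpab and Hnrnph3. The 7 members higher in 4T1 became 4 with quantile normalization and 11 with the replicate number as a block, and 3 to 14 when 1 library was left out. The share of all genes called in that direction was 25.1% as deposited. It was 23.0% with quantile normalization, 27.9% with the block and 19.3% to 29.2% with 1 library left out. The 1 higher in 4TO7 became 3 with equal totals, 3 with quantile normalization, 2 in DESeq2 and 0 in limma without trend and robust settings. In the same order all genes gave 28.4%, 26.2%, 25.7% and 22.7%, beside 23.9% as deposited. With 1 library left out it became 0 to 2, where all genes gave 17.4% to 27.3%. The related genes higher in 4T1 (39) were 21 to 48 with 1 library left out, where all genes gave 19.3% to 29.2%. The members' median of 0.21 became 0.032 with quantile normalization.

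The values did not settle if replicate numbers pair the samples. Deviations of same-numbered libraries from their line means correlated at -0.01, 0.27 and 0.33. Replicates 2 and 3 of 4T1 correlated best with the same number in 4TO7. Replicate 1 of 4T1 correlated best with 4TO7 replicate 2 (0.11). The block gave 11 and 1 calls, where all genes gave 27.9% higher in 4T1 and 26.3% higher in 4TO7. It added Srsf2 (adjusted p = 0.00836), Srsf1 (0.0223), Hnrnpa3 (0.0252) and Srsf7 (0.0491).

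Signs turned for members that were not called. Equal totals gave Celf1 -0.10, Hnrnpl -0.054 and Hnrnpf -0.053, and TMM scaling gave Celf1 -0.0064. Quantile normalization gave Hnrnpa2b1 -0.0020, Celf1 -0.13, Hnrnpa0 -0.0088, Hnrnpl -0.10, Mbnl1 -0.011, Hnrnpf -0.027 and Hnrnpa1 -0.057. Mbnl3 was 0.0074 in edgeR and 0.035 in DESeq2, and -0.48 to 0.42 when 1 library was left out. In those fits Celf1 ran from -0.11 to 0.18, Mbnl1 from -0.051 to 0.35, Mbnl2 from -0.0067 to 0.33 and Hnrnpf from -0.0079 to 0.22. The cause was not tested. With 3 libraries a line the smallest log2 difference called among the members was 0.43 (Hnrnpc).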
